A study of Mus musculus with 4 samples.

Results

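The chromatin contacts at Kcnma1, the gene of the BK potassium channel, were described in H3K27ac HiChIP lists from 2 classes of inhibitory interneuron of the adult mouse cortex, those that express somatostatin (SST) and those that express vasoactive intestinal peptide (VIP). Members were all listed interactions with at least 1 anchor overlapping, by 1 bp or more, chr14:24050000-24850000 (mm9), a region of 800 kb that holds Kcnma1 and flanking sequence, with the promoter at the high-coordinate end. There were 45 members among the 8278 interactions of the SST list and 0 among the 6733 interactions of the VIP list. The region was chosen by its interaction counts in these same lists, many in SST and none in VIP, so the counts are a description and were not tested. The place of Kcnma1 was taken from the rule for members and was not checked against an mm9 annotation.

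SST nuclei came from mice labelled Sst-cre; Sun1 and VIP nuclei from mice labelled Vip-cre; Sun1, both on a C57BL/6 background, with cortex as the tissue. In this INTACT design a nuclear envelope tag on Sun1 is switched on by the Cre driver, so each list describes the nuclei that the Sst or Vip driver tagged. HiChIP joins chromatin fragments that lie close together in the nucleus and keeps those that carry a chosen mark, here H3K27ac, the acetylation found at active promoters and enhancers. The labels name 4 samples, 2 per cell type, and 1 list per cell type was analysed here. Each list was given with replicate 1 of its cell type, and whether it also holds replicate 2 is not stated. There is therefore no spread between animals, every interval below covers counting error only, and sequencing depth is unknown.

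Kcnma1 encodes the pore-forming subunit of the BK channel, a potassium channel of large conductance that opens with depolarisation and with intracellular calcium. In neurons BK currents help to repolarise the action potential, contribute to the fast afterhyperpolarisation that follows it, and limit calcium entry at some terminals. The pore-forming subunits assemble as tetramers, and auxiliary subunits change their calcium and voltage dependence. Kcnma1 is read from the minus strand, so its promoter is at the higher coordinates and transcription runs towards the lower ones. In the RefSeq gene order of GRCm38.p6 its protein-coding neighbours are Lrmda on the low side and Dlg5, a membrane-associated scaffold gene, on the high side. The non-coding genes 5430425E15Rik, Gm51422 and 4930519K11Rik overlap it.

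Because one end of the contacts described below lies at the promoter side, the 250 bases before the Kcnma1 start site in the RefSeq promoter table are shown, chr14:24004206-24004455 of GRCm38.p6, minus strand, read 5′ to 3′, with a TATATA match in capitals. This build differs from that of the interactions, and the sequence was not placed on an anchor.
Kcnma1 promoter: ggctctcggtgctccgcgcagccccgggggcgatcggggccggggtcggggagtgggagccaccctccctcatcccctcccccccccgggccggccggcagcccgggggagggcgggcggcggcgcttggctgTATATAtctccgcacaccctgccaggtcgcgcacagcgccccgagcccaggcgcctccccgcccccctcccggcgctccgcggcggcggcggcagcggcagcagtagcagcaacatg
The sequence was 79.2% G or C, against a median of 52.4% over the 32851 promoter windows of the table, and 1.56% of those windows were at least as rich. It held 31 CpG dinucleotides, against a median of 6, and 5.19% of windows held as many. The TATATA match, which reads the same on both strands, began 117 bases before the start site, and 5.25% of windows held one. Neither TGACGTCA, the full cyclic AMP response element, nor TGANTCA, the AP-1 motif, was found on either strand of these 250 bases; 1.55% and 6.75% of windows held them.

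In SST the region held a closed network of contacts. The 45 interactions (exact Poisson interval 32.8 to 60.2) were 5.44 per 1000 of the SST list, and joined 17 anchors. The Poisson interval takes interactions as independent, which those that share an anchor are not, so it is too narrow. All 45 had both anchors inside the region, all 17 anchors were connected with each other directly or through others, and no interaction led out. The anchors ran from 24382075 to 24826241, a span of 444 kb, and covered 57.0% of it. The first 332 kb of the region, on the side of the gene's 3′ end, held no anchor, and the last anchor ended 23.8 kb inside the high boundary. The nearest SST anchor beyond the network lay 747 kb away on the high side and 2036 kb away on the low side, so the bounds of the region separated no neighbouring contacts.

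In VIP no interaction and no anchor was listed in the region, and no VIP anchor overlapped any of the 17 SST anchors. None of the SST or VIP interactions passed over the region from one side to the other. The longest interaction in the lists spanned 999.7 kb. The nearest anchor below the network lay 2036 kb away in SST and 5439 kb away in VIP. No interaction could thus pass over the region, and nothing is read from this outcome. With the VIP count of 0 among 6733 interactions set to 3 counts, a share of 0.0446% or 0.446 per 1000, the SST value was 12.2-fold higher. This ratio leaves out the counting error of the 45 SST interactions and is not a lower bound. The exact Poisson upper limit of the VIP count was 3.69, or 0.548 per 1000. The SST share of 5.44 per 1000 had an interval of 3.97 to 7.27, which likewise takes interactions as independent. As the region was chosen by these counts, the Poisson limits do not measure a difference between the cell types. The nearest VIP anchors were at 25343320 to 25358746, 517 kb above the network, with 1 interaction, and at 18936238 to 18943022, 5439 kb below it, also with 1. On the whole of chromosome 14 the lists held 381 SST and 273 VIP interactions, so the Kcnma1 network made up 11.8% of the SST interactions of its chromosome. Larger SST networks on that chromosome held 52 and 47 interactions. The SST list was also the longer one, and the part of list length or depth in the difference was not tested. A contact that was not listed may still exist below the detection of the assay.

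**Figure D1:**
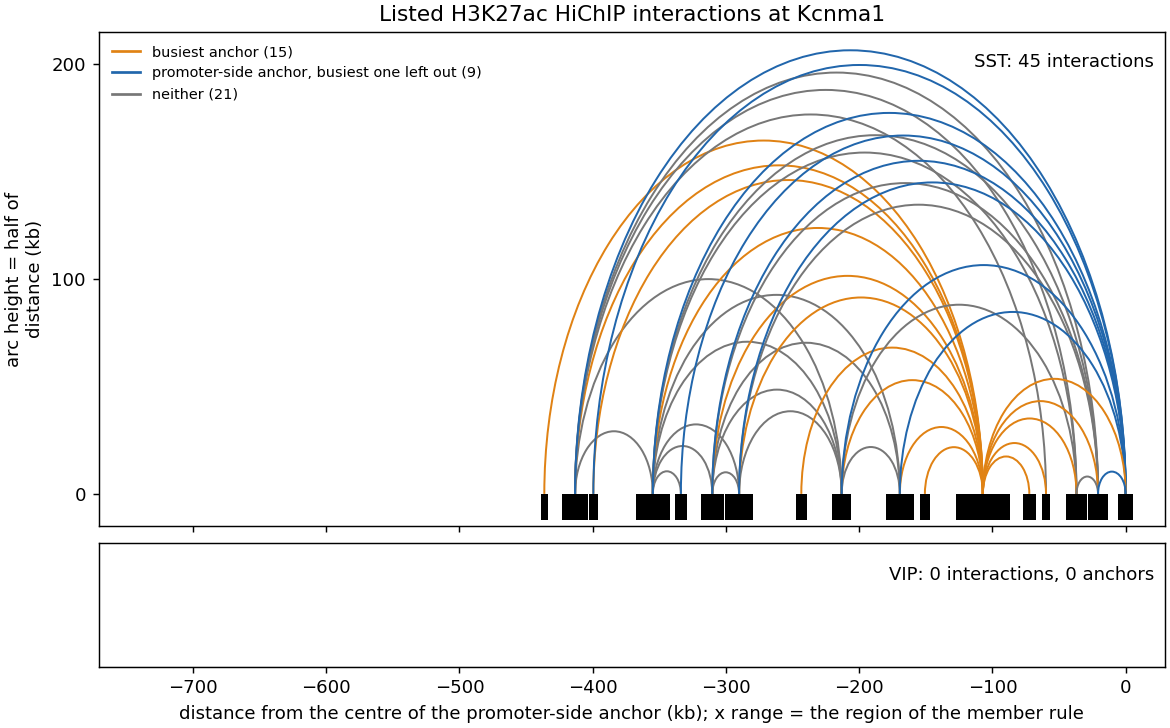
Listed interactions at Kcnma1 in SST (upper panel) and VIP (lower panel), with the distance from the centre of the promoter-side anchor in kb on the horizontal axis; black boxes are anchors and each arc is 1 interaction, as high as its radius. All 45 SST arcs lie in the part of the region next to the promoter side, and the VIP panel is empty.

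Other regions also had SST interactions and none in VIP. Of 156 windows of 800 kb with 20 or more SST interactions, 25 had no VIP interaction, or 16.0%. Of 193 connected sets of 10 or more anchors in the SST list, 34, or 17.6%, shared no anchor with VIP, the Kcnma1 network included. A connected set is a group of anchors that can all be reached from one another through listed interactions. Over the other sets the median share of anchors that overlapped a VIP anchor was 36.4%. Since Kcnma1 was picked for this contrast, nothing is read from its place among them.

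The contacts were spread unevenly over the 17 anchors, which are numbered here from the lowest to the highest coordinate. Anchor 12, at 24693182 to 24734095, took part in 15 interactions, with 15 of the 16 other anchors. The single anchor it was not linked to was anchor 5, at 24482663 to 24491353. Anchor 12 lay 107 kb from the promoter-side anchor in the direction of transcription, and its partners were on both sides, 10 at lower and 5 at higher coordinates. Its interactions spanned 34.8 to 329 kb, with a median of 107 kb. Of the 5842 anchors of the SST list, 83 took part in 15 or more interactions.

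Anchor 17, at 24815377 to 24826241, was the one at the promoter end of the network, and took part in 10 interactions. All its partners lay at lower coordinates, as no anchor was listed above it. Its interactions reached from 20.8 kb, to anchor 16, up to 413 kb, to anchor 2, with a median of 300.2 kb, and 7 of the 10 were longer than 200 kb. Anchor 17 was linked to anchor 12, and of its 9 other partners 8 were also partners of anchor 12. Anchors 12 and 17 between them took part in 24 of the 45 interactions, or 53.3%, and the remaining 21 joined other anchors.

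Anchor 4, at 24453122 to 24478775, also took part in 10 interactions and lay 355 kb from anchor 17, in the far part of the network. It was linked to 9 anchors at higher coordinates, including anchors 12, 15, 16 and 17, and to anchor 2 below it. Anchor 9, at 24600630 to 24614718, midway along the network, had 8 interactions, 4 to each side. Anchors 2, 6 and 16 had 7 interactions each, anchor 7 had 6, and anchors 10 and 15 had 5 each. The other 7 anchors had 1 or 2 each, and each of these except anchor 5 was linked to anchor 12. Over the network the median was 5 interactions per anchor, and 58.8% of anchors had 3 or more, against a median of 2 and 34.4% over all SST anchors. The region was chosen for its many SST interactions, and only 193 of the 836 connected sets of the SST list had 10 or more anchors. A higher value at Kcnma1 follows from that choice, and nothing is read from it.

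**Figure D2:**
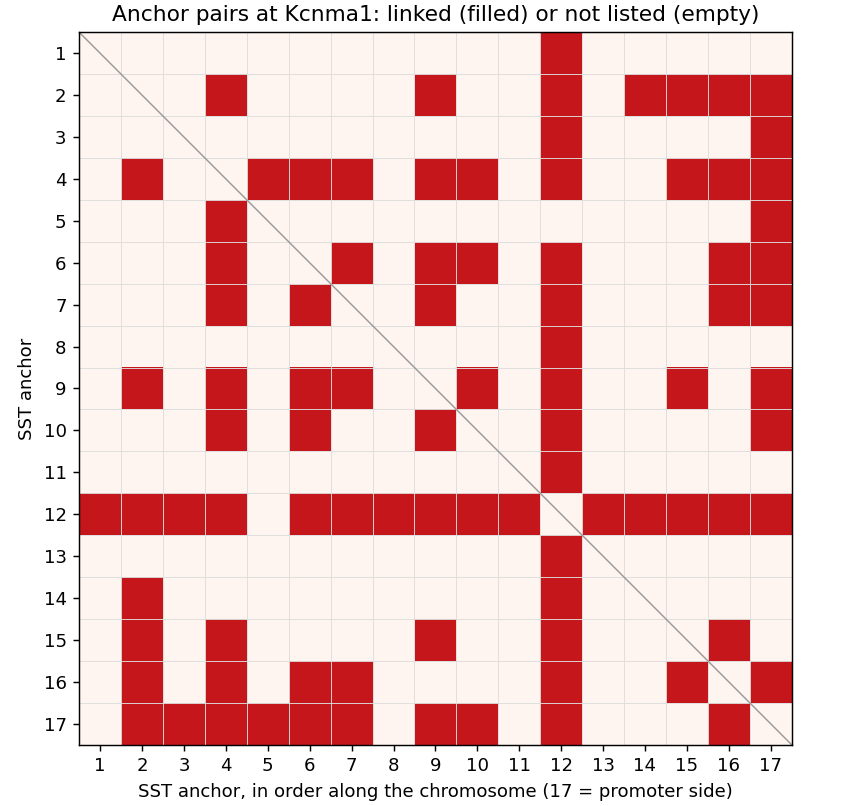
Pairs of the 17 SST anchors at Kcnma1, in chromosomal order on both axes; a filled square is a listed interaction and the matrix is symmetric. The row of anchor 12 is filled for 15 of 16 partners, the row of anchor 17 for 10, and 7 of the 16 squares beside the diagonal are filled.

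The number of interactions went with anchor width. Widths ranged from 4.88 kb at anchor 1 to 40.9 kb at anchor 12, with a median of 14.1 kb, against 11.8 kb over the 5825 other SST anchors. The 7 anchors narrower than 10 kb took part in 1 or 2 interactions each, and the 10 wider ones, from 10.9 kb upwards, in 5 to 15. Spearman's rho between width and interactions was 0.74 over these 17 anchors, which share 1 list and are partners of each other. Anchor 17 stood above this relation, with 10 interactions at a width of 10.9 kb, or 0.920 per kb of width. No other anchor of the network reached that value, anchor 9 being next with 0.568, while anchor 12 had 0.367 and the median anchor 0.313. A wider anchor can collect more read pairs, and the part of width in these counts was not tested.

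**Figure D3:**
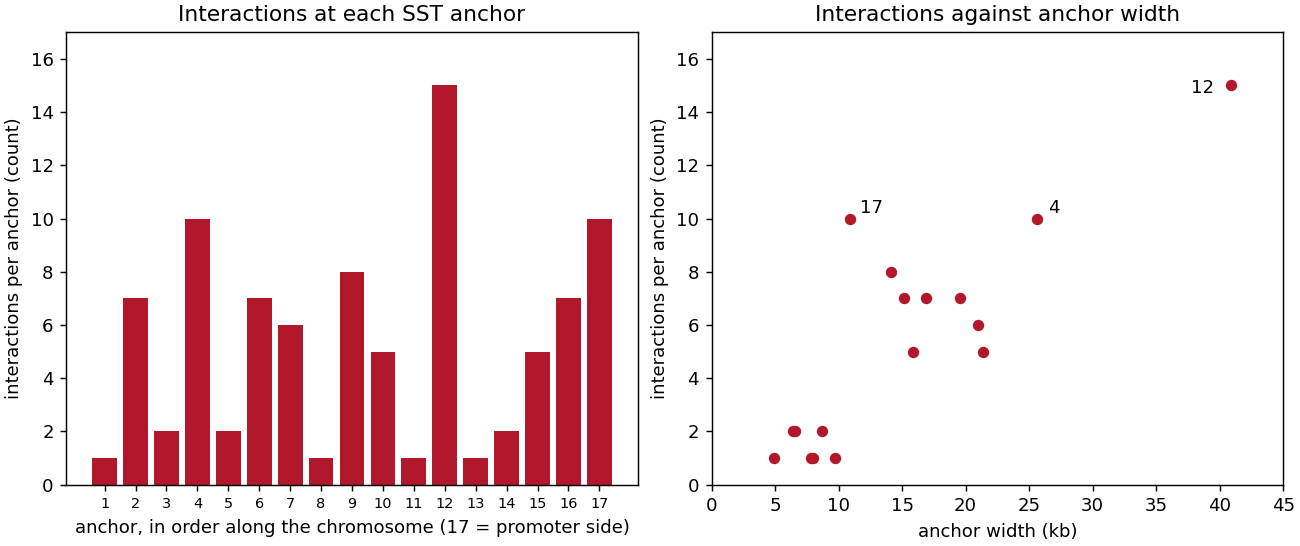
Interactions of each SST anchor at Kcnma1, in chromosomal order (left) and against anchor width in kb (right, with anchors 4, 12 and 17 numbered). The 7 anchors narrower than 10 kb have 1 or 2 interactions, and anchor 17 has 10 at a width of 10.9 kb.

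The wide anchors formed most of the network among themselves. Of the 45 pairs that the 10 wider anchors can form, 35 were linked, or 77.8% (exact binomial interval 62.9 to 88.8%). Pairs of a wider and a narrower anchor were linked in 10 of 70 cases, or 14.3%, and pairs of narrower anchors in 0 of 21. In the other SST connected sets of 10 or more anchors, pairs up to 450 kb apart were linked in 45.7% of 6606 cases where both anchors were 10 kb or wider, in 18.7% of 8424 cases where 1 was, and in 1.60% of 3883 cases where neither was. The order by width was thus the same at Kcnma1 as elsewhere, and the share among wider anchors was the higher one at Kcnma1. The width of 10 kb was chosen after the values were seen, and pairs that share an anchor are not independent, so this difference was not tested.

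Contacts at Kcnma1 reached across the whole network. The 45 interactions spanned 16.2 to 413 kb, with a median of 176 kb (order-statistic interval 97.1 to 269 kb), which lies close to the 178 kb of the other 8233 SST interactions. The quartiles lay closer together at Kcnma1, at 64.7 and 306 kb, against 52.3 and 397 kb for the others. The longest of the others spanned 999.7 kb, more than a network of 444 kb can hold. The 91 pairs of Kcnma1 anchors that were not linked had a median distance of 151 kb. Only 7 of the 16 pairs of neighbouring anchors were linked. Of all 136 pairs, 39.1% were linked up to 50 kb (9 of 23, interval 19.7 to 61.5%), 31.8% at 50 to 100 kb (7 of 22, 13.9 to 54.9%) and 24.3% at 100 to 200 kb (9 of 37, 11.8 to 41.2%). At 200 to 300 kb the share was 25.8% (8 of 31, 11.9 to 44.6%), and at 300 to 450 kb it was 52.2% (12 of 23, 30.6 to 73.2%). The longest class had the highest share and the classes from 100 to 300 kb the lowest, and differences between the classes were not tested, since pairs share anchors.

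In the other SST connected sets of 10 or more anchors 40.6% of pairs were linked up to 50 kb, 28.7% at 50 to 100 kb, 17.5% at 100 to 200 kb, 15.8% at 200 to 300 kb and 26.0% at 300 to 450 kb. Up to 300 kb the Kcnma1 intervals include the values of the other sets. At 300 to 450 kb the Kcnma1 share was the higher one, and its lower bound of 30.6% lay above the 26.0% of 4677 pairs elsewhere. Of the 12 Kcnma1 interactions in that class, 5 ended at anchor 17 and 5 at anchor 2, with 1 joining these anchors to each other. Few anchors thus carry the value, and the interval, which takes pairs as independent, is too narrow.

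**Figure D4:**
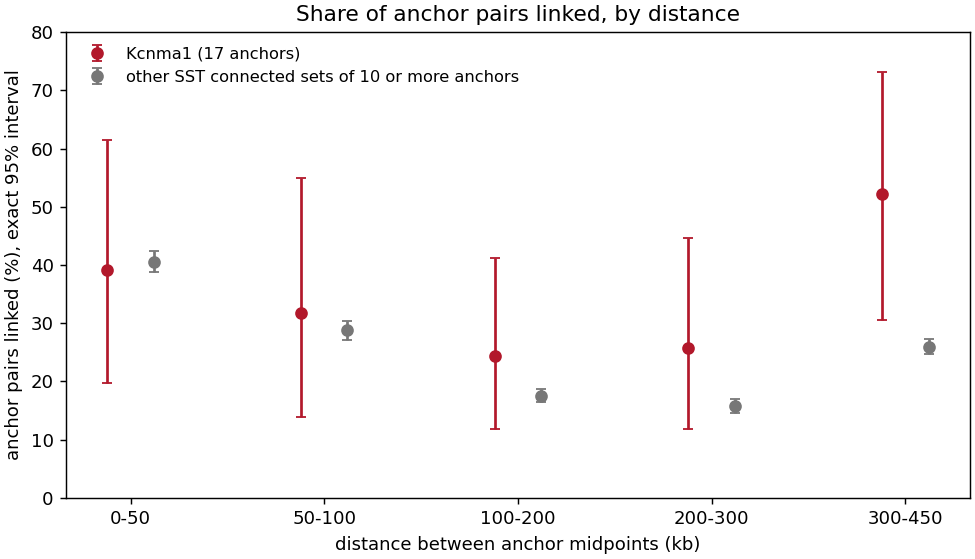
Percentage of anchor pairs linked in the SST list by distance between anchor midpoints in kb, at Kcnma1 and in the other SST connected sets of 10 or more anchors; bars are exact 95% binomial intervals. At 300 to 450 kb, 52.2% of Kcnma1 pairs were linked, against 26.0% elsewhere.

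Long contacts joined the far end of the network to its promoter end. Of the 28 pairs between the 7 lowest anchors (anchors 1 to 7) and the 4 highest (anchors 14 to 17), which lay 230 to 436 kb apart, 13 were linked, or 46.4% (27.5 to 66.1%). Among the 7 lowest anchors, at 13.7 to 146 kb, 5 of 21 pairs were linked, or 23.8% (8.22 to 47.2%), and among the 4 highest 2 of 6. The grouping was made after the contacts were seen, and the difference was not tested. Anchors 1, 3 and 5 of the low group and anchor 14 of the high group were narrower than 10 kb. The part of anchor width in these shares was not tested either. Anchor 2, at 24397830 to 24417391, was linked to each of anchors 14, 15, 16 and 17, and anchor 4 to anchors 15, 16 and 17.

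Set beside the other SST networks, the one at Kcnma1 was among the shorter and denser for its number of anchors. With 45 of 136 pairs linked it had 33.1% of its pairs linked (25.3 to 41.7%). The share depends on how the anchors were divided: with anchors within 5 kb of each other merged, 11 anchors remained and 52.7% of their pairs were linked. The 9 other sets of exactly 17 anchors had 18 to 46 interactions, a median of 26, and 13.2 to 33.8% of their pairs linked. Over the 69 other sets of 14 to 20 anchors the linked share ran from 11.1 to 51.6% with a median of 20.0%, and 7 of them were above Kcnma1. Their median span was 939 kb. No listed interaction was longer than 999.7 kb, so in sets of longer span some pairs were too far apart to be linked. The part of span in these shares was not tested. The spans of the 9 sets of 17 anchors ran from 699 to 1724 kb with a median of 933 kb, all longer than the 444 kb at Kcnma1. Between 0 and 14 of their 17 anchors overlapped a VIP anchor, and 1 of the 9, on chromosome 15 from 73573189 to 74511980, shared none.

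Of the 69 sets of 14 to 20 anchors, 2 had a shorter span than Kcnma1, both with 14 anchors, in 305 kb on chromosome 17 and in 371 kb on chromosome 10. Among the 80 other sets with 17 or more anchors the shortest span was 565 kb. That set, on chromosome 1 from 93807474 to 94372475, held 64 interactions between 18 anchors and likewise none of its anchors overlapped a VIP anchor. Kcnma1 also had many closed triangles, in which 3 anchors are all linked with each other. There were 61, and 56.5% of the pairs of contacts that share an anchor were closed by a further contact, against a median of 30.8% over the 69 other sets of 14 to 20 anchors. Of those 69 sets, 7 had a higher value. In sets that span more than the 999.7 kb of the longest listed interaction, some pairs of contacts have outer ends too far apart to be closed. This does not occur at Kcnma1, and the part of span in this measure was not tested. Spans, linked shares and triangles are descriptions of 1 list with no replicate check, and the many SST interactions were part of why the region was chosen.

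**Figure D5:**
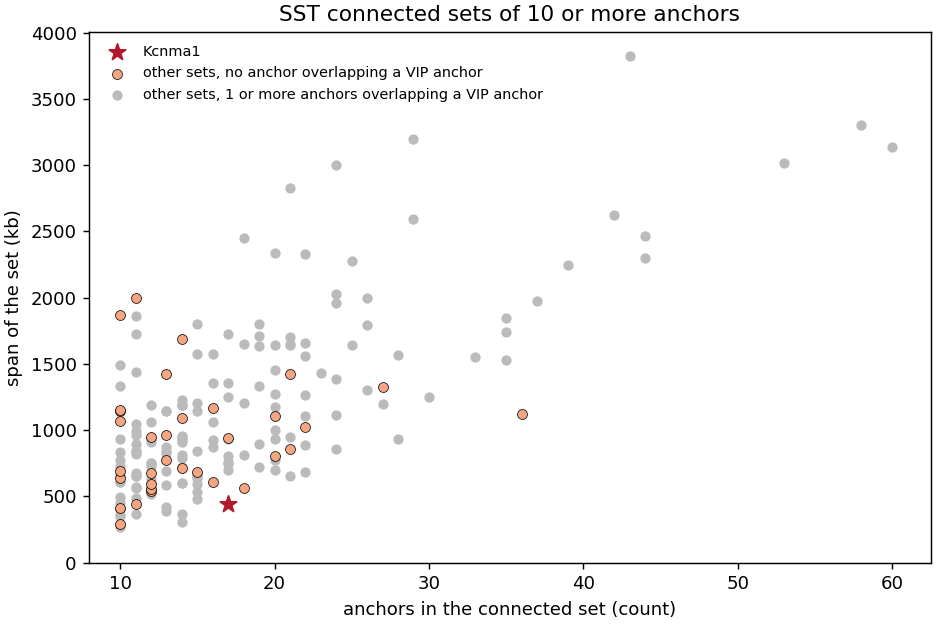
Span in kb against number of anchors for the 193 SST connected sets of 10 or more anchors, with Kcnma1 as a star and sets without any anchor overlapping a VIP anchor outlined. Kcnma1, at 17 anchors and 444 kb, lies below every other set of 17 or more anchors.

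The windows whose counts were most like those of Kcnma1 were taken as the 800 kb windows with the smallest summed difference in SST and VIP interactions, with ties kept. Closest were chromosome 17 from 67200001 to 68000000, with 44 SST and 0 VIP interactions, and chromosome 9 from 40000001 to 40800000, with 45 SST and 1 VIP. Next came chromosome 17 from 12000001 to 12800000 and chromosome 3 from 152800001 to 153600000, each with 42 SST and 0 VIP. Chromosome 14 from 100000001 to 100800000 held 43 SST and 2 VIP interactions, and chromosome 8 from 13600001 to 14400000 held 42 and 1. Between 5 and 34 of the SST interactions of such a window had both anchors inside it, against 45 of 45 at Kcnma1. The region at Kcnma1 was drawn around a gene and these windows were not, which bears on that comparison.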

How the data were processed

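H3K27ac HiChIP was done on INTACT-purified nuclei, with MboI digestion and Tn5 libraries, per the labels' protocols. HiC-Pro and the build mm9 are named, per the submitters' processing notes. The deposited files hold 6 columns per interaction, the chromosome, start and end of each anchor, with no count or score. Not given in the sources used here are the interaction caller, its threshold, how anchors were defined and whether replicates were pooled. Positions are printed as in the files, so a start may differ by 1 bp.

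Members were taken by the coordinates given above. Distances run between anchor midpoints. Anchors were compared between lists by an overlap of 1 bp or more, and connected sets were built from each whole list. No p-value was computed, as each cell type has 1 list. The 95% intervals are exact Poisson, exact binomial (Clopper-Pearson) or order-statistic intervals.

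The region, the gene lists and the rule for named windows were chosen with earlier results of these data known. Connected sets, the 10 kb width, the anchor groups and the distance classes were added after the contacts were seen. An mm9 annotation was not used here, so anchors were not assigned to exons or introns, and neither the lists of BK subunits, other calcium-activated potassium channels and calcium channels nor the cell type markers were run. The counting steps were tested on simulated lists. The tools were networkx 3.6.1, scipy 1.17.1, pandas 2.3.3, numpy 2.4.6, matplotlib 3.10.9 and Python 3.11.15.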

Additional observations from a re-analysis of the deposited data

How the results depend on the processing

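The 45 SST and 0 VIP interactions were the same when both anchors or the midpoint had to lie in the region and with bounds moved 50 kb inwards or 100 kb outwards. Limiting distances to 200 kb left 25 SST and 0 VIP interactions, since longer ones are removed by construction. Anchors within 5 kb of each other were an alternative that changed how the network is divided. Merging them left 11 SST anchors and 29 interactions, with 52.7% of pairs linked and a median anchor width of 26.7 kb, while anchor 12 still had the most interactions, 10. The promoter-side anchor, anchor 17, then had 7 interactions in place of 10, so its count also depends on how the anchors were divided. The median distance was 180 kb among interactions of 20 kb or more. With windows moved by 400 kb, 19.3% of those with 20 or more SST interactions had no VIP interaction. No replicate could be left out, as each cell type has 1 list. No paired analysis was possible because the result comes from no test and the lists hold no value per replicate. Depth is unknown, so a contact missing from a list may have been below detection, which was not tested.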
